A study of Mus musculus with 4 samples.

Results

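The 8 genes described here encode transcription factors and cofactors of red-cell formation: Gata1, Klf1, Tal1, Nfe2, Gfi1b, Zfpm1, Lmo2 and Ldb1. They were chosen by name, as the core erythroid regulators, from the 21951 protein-coding genes of the mouse annotation, and all 8 were found in it. Sites of transcription initiation at these genes were compared between liver and yolk sac of E14.5 mouse embryos (E, embryonic day), with 2 libraries of each tissue. Each library was made from tissue of 6 pooled embryos. The embryos came from C57BL/6J mothers and from fathers of mixed C57BL/6J and CAST/EiJ background chosen so that their only alleles at the Dlk1/Gtl2 locus, which is on chromosome 12, were CAST/EiJ, and this holds for both tissues. The run-on reaction was done on chromatin isolated from the frozen tissue. The labels do not say whether the 2 pools of a tissue share litters, so the spread between replicates may be partly technical.

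The fetal liver is the main site of red-cell formation at this stage, whereas the yolk sac made the first, primitive red cells earlier and consists of endoderm, mesoderm and vessels with blood in them. Gata1 binds GATA sequences and is required for erythroid maturation, Zfpm1 (also called FOG1) is its cofactor, and Tal1, Lmo2 and Ldb1 join it in a complex at E-box and GATA sites. Klf1 binds CACCC sequences and activates the adult beta-globin gene, Nfe2 is the larger subunit of a bZIP factor that acts at globin enhancers and in platelet formation, and Gfi1b is a repressor. Most of them are also active in megakaryocytes, and Tal1 and Lmo2 are active in endothelial cells and blood progenitors too.

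The assay was PRO-seq (precision nuclear run-on sequencing), which maps RNA polymerases engaged in transcription. Each deposited list holds dREG peaks, intervals classed as transcription start regions at promoters and at enhancers, with a score. The liver lists held 24863 and 24333 peaks and the yolk sac lists 50525 and 43055. Read depth is unknown, and the score was used only as a percentile within its own list. A percentile of 90, for example, means that 90% of the peaks in that list scored no higher. Because yolk sac had the longer lists, counts at these genes are given beside the same counts over all protein-coding genes. With 2 libraries against 2, the smallest exact two-sided permutation p is 0.333, so differences were read against the spread between replicates.

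The RefSeq promoter table of GRCm38.p6 held 9 start sites for 6 of the 8 genes. Of the windows before them, 4 were covered by peaks in liver alone and 5, in whole or in part, by peaks of all 4 libraries. The former 4 and, for contrast, 2 of the latter are shown here, and the bases before the start are printed 5′ to 3′ along the gene. Capitals mark matches on either strand to the GATA motif (AGATAA and, ending with G, AGATAG, or the same pair opening with T, which is TGATAA and, ending with G, TGATAG) or to CACCC. The starts of Gata1 (chrX:7967911-7968160, minus strand), Klf1 (chr8:84901732-84901927, plus strand, ending where the first annotated exon begins) and Gfi1b (chr2:28621983-28622232, minus strand) lay in peaks of both liver libraries and of neither yolk sac library. So did the internal start of Ldb1 (chr19:46037071-46037320, minus strand). The first start of Tal1 (chr4:115056176-115056425, plus strand) and that of Zfpm1 (chr8:122281891-122282140, plus strand) were in peaks of all 4 libraries.
Gata1: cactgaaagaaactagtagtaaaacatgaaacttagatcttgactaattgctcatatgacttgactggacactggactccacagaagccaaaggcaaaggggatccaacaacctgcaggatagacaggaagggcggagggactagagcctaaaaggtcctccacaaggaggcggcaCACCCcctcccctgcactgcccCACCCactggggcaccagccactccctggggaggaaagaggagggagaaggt
Klf1: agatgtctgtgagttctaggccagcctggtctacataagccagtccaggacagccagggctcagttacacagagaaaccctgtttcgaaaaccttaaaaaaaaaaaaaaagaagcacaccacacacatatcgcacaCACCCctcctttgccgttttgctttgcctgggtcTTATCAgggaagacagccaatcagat
Gfi1b: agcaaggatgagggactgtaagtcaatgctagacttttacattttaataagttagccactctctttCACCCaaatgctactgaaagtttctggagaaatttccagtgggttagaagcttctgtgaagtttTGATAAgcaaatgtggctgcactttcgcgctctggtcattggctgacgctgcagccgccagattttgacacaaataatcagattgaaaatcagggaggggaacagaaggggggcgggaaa
Ldb1: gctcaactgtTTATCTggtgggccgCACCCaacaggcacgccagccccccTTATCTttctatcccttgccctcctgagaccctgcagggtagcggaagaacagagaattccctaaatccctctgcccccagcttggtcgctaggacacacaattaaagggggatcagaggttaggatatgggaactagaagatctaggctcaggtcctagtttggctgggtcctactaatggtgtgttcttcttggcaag
Tal1: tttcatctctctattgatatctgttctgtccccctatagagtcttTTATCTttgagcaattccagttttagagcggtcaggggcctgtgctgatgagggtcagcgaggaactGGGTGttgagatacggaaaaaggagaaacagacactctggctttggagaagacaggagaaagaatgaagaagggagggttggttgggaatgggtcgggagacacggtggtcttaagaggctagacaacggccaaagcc
Zfpm1: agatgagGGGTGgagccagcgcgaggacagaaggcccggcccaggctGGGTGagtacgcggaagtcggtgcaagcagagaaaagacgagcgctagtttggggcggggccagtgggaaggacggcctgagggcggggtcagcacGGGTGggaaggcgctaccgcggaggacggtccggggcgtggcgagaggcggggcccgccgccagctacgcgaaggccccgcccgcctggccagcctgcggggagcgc

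In the 250 bases before each RefSeq start, the GATA motif was found in 4 of the 9 windows of these genes, and in 26.5% of the 32851 windows of the whole table. CACCC was found in 8 of the 9 windows and in 52.0% of all windows. The E-box CANNTG was found in 4 of 9 and in 66.2% of all. The joint motif of CTG, 7 or 8 bases and AGATAA was in none of the 9 and in 0.508% of all, and the bZIP motif TGANTCA in none and in 6.75% of all. The first base of the GATA match was at position -80 relative to the RefSeq start of Klf1 at 84901982, at -120 at Gfi1b and at -205 at Tal1. The internal start of Ldb1 had a pair, at -240 and -200. The Gata1 window held no GATA match and had CACCC at -74 and -52. A match is a description of the letters and does not show that a factor is bound.

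At the level of whole genes, both liver libraries had a promoter peak, one within 500 bp of an annotated start, at 8 of the 8 genes, and both yolk sac libraries at 5. Gata1, Klf1 and Gfi1b had this call in the 2 liver libraries but not in yolk sac. Over all protein-coding genes such liver-only calls made up 1.01%, and the reverse pattern, which none of the 8 genes had, 5.25%. None of the 8 lacked a call in all libraries, as 34.2% of genes did. Tal1, Nfe2, Zfpm1, Lmo2 and Ldb1 were called in all 4 libraries, as were 53.8% of protein-coding genes. The libraries are of bulk tissue, in which fewer cells of a type and less transcription per cell cannot be told apart. With a window of 250 bp the 3 liver-only genes were the same, among 221 such genes of 21951. With 1000 bp Klf1 was called in all 4 libraries and 2 genes were liver-only, as were 220 of the 21951. The 8 genes have 26 groups of start sites, starts within 500 bp of each other counted as 1 group. Of these groups, 10 had a peak in all 4 libraries, 8 in both liver libraries only, 2 in other patterns and 6 in none. No group was yolk-sac-only. Groups are not separate calls, as the 3 liver-only groups of Nfe2 lay at the same wide peak in each liver library. Start groups of all protein-coding genes were not counted, so no background share stands beside these numbers.

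**Figure D1:**
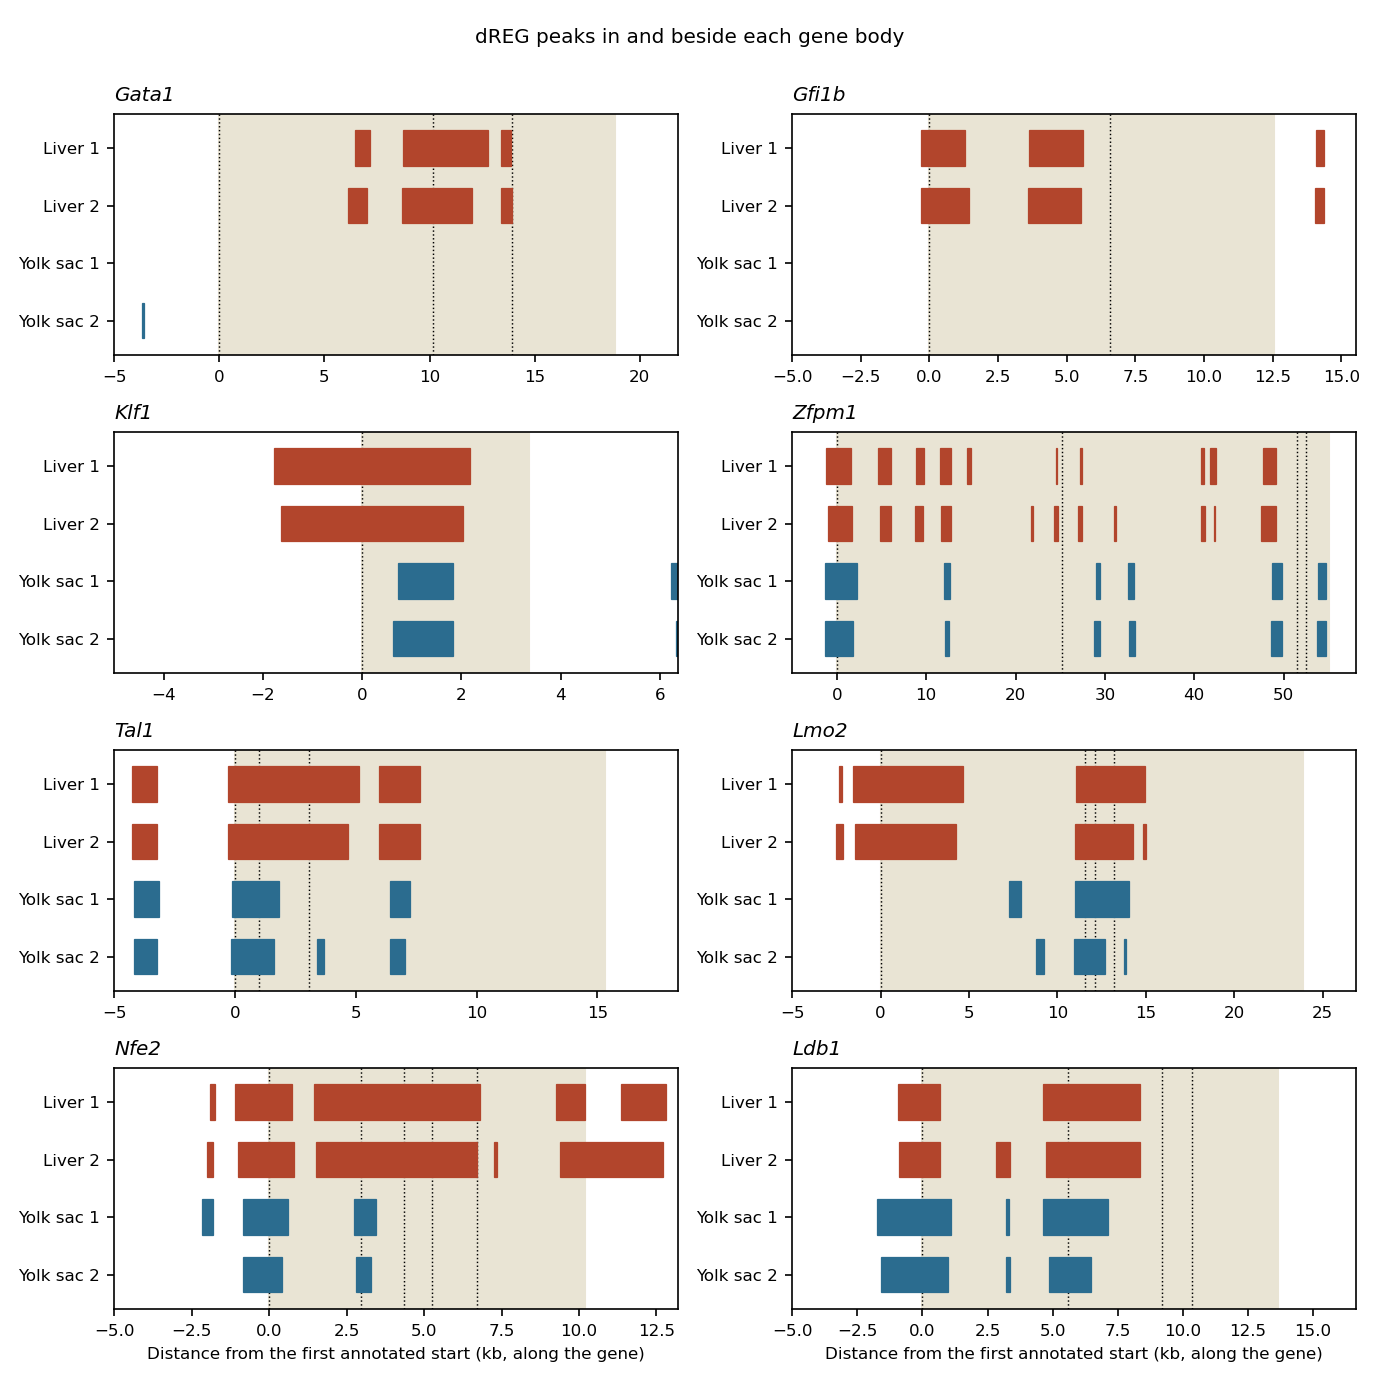
Peaks in and beside each gene body, with distance from the first annotated start in kb along the gene on the horizontal axis and 1 row per library (liver red, yolk sac blue). The shaded span is the gene body and dotted lines are groups of annotated starts. The bodies of Gata1 and Gfi1b hold no yolk sac peak, and the liver peaks at Klf1, Tal1, Nfe2 and Lmo2 extend over more of the gene than the yolk sac peaks do.

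Gata1 lies on chromosome X from 7959260 to 7978071 on the minus strand and has 3 annotated starts. Its gene body held 3 peaks in each liver library and 0 in each yolk sac library. The main peak spanned 7965301 to 7969352 in liver replicate 1 and 7966051 to 7969402 in liver replicate 2, across the start at 7967910. It was 4052 and 3352 bp wide, at the 99.1 and 98.3 percentiles of its list in width, while its score was at the 42.7 and 48.7 percentiles. The peak was thus among the widest of both liver lists with a score below the median of each. A narrower pair of peaks, 452 and 502 bp wide, lay at the internal start at 7964166. The farthest start, at 7978071, had no peak in any of the 4 libraries.

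A further Gata1 region at 7970901 to 7971952, in an intron, was called in both liver libraries only, at the 43.8 and 81.5 percentiles. Its midpoint was at -3516 bp from the start at 7967910. An upstream enhancer of Gata1 active in erythroid cells is known from this stretch before the main erythroid start, and whether the region is that element was not tested. A region upstream of the gene at 7992451 to 7993852 was called in all 4 libraries. The yolk sac peak nearest to the gene was 102 bp wide, in replicate 2 only, at 7981651 to 7981752. The Gata1 promoter call was lost in both liver libraries when only the higher-scoring 50% of each list was kept.

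Klf1 is a short gene on chromosome 8, from 84901928 to 84905291 on the plus strand, with 1 annotated start. Both liver libraries had a peak across this start, from 84900151 to 84904102 in replicate 1 and from 84900301 to 84903952 in replicate 2. These were 3952 and 3652 bp wide and scored at the 95.0 and 97.8 percentiles. Both yolk sac libraries had a peak as well, but inside the gene, beginning 723 and 623 bp after the start and ending 1824 bp after it. The yolk sac peaks were 1102 and 1202 bp wide and scored at the 64.6 and 89.3 percentiles. The liver-only call at Klf1 therefore describes where initiation was called and not whether the gene had a peak at all. No peak of either yolk sac library reached the sequence printed above for Klf1, and when overlapping peaks were merged the 4 formed 1 shared region.

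Tal1 lies on chromosome 4 from 115056426 to 115071755 on the plus strand. Its first start was within a peak in all 4 libraries, which ended 5126 and 4676 bp after the start in liver and 1826 and 1626 bp after it in yolk sac. The liver peaks were 5402 and 4952 bp wide and the yolk sac peaks 1952 and 1802 bp. Their scores were at the 86.9 and 58.8 percentiles in liver and the 85.4 and 80.4 percentiles in yolk sac. The start was shared, and the extent of the peak into the gene separated the tissues. A start 3082 bp after the first was within the liver peaks, and yolk sac replicate 2 had a separate peak of 302 bp beside it.

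The Tal1 locus is known for enhancers close upstream of the promoter, in a stem-cell element downstream of the gene and in an erythroid element beyond the neighbouring gene Pdzk1ip1. A region at 115052151 to 115053302, with its midpoint at -3700 bp from the first start, was called in all 4 libraries, at the 67.9 to 94.4 percentiles. A region at 115093451 to 115097352, with its midpoint 38975 bp after the start and at the end of and beyond Pdzk1ip1, was also called in all 4. There the peaks were 3552 and 3852 bp wide in liver and 2252 and 1852 bp in yolk sac. A liver-only region lay at 115047551 to 115048952 and a yolk-sac-only region at 115086151 to 115087552, both intergenic. Near 19075 bp after the start, only liver replicate 1 had a peak, 102 bp wide at the 8.26 percentile. Inside the gene, a region at 115062401 to 115064102 was called in all 4 libraries, 1702 bp wide in each liver library and 802 and 602 bp in yolk sac. Identity with the known elements was not tested.

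Nfe2 lies on chromosome 15 from 103248212 to 103258403 on the minus strand, with 10 annotated starts in 5 groups. The first start had a peak in all 4 libraries, 1852 and 1802 bp wide in liver and 1452 and 1252 bp in yolk sac. A second peak inside the gene spanned 103251601 to 103256952 and 103251701 to 103256902 in liver, 5352 and 5202 bp. In yolk sac it spanned 103254951 to 103255652 and 103255101 to 103255602, 702 and 502 bp. The yolk sac peaks lay at 1 internal group of starts and the liver peaks at 4, so that 3 groups of Nfe2 starts were liver-only. A region across the 3′ end of the gene, at 103245601 to 103249152, was liver-only too, at the 36.3 and 35.9 percentiles. The 2 yolk-sac-only regions around Nfe2, at 103220901 to 103221452 and 103281001 to 103281302, lay in introns of Cbx5 and Copz1 at or below the 26.4 percentile.

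Gfi1b lies on chromosome 2 from 28609450 to 28621982 on the minus strand. Both liver libraries had a peak at the first start, 1602 and 1752 bp wide, at the 71.1 and 57.8 percentiles. A second liver-only region in an intron, at 28616401 to 28618402, was 1952 bp wide in each liver library. Downstream of the gene, 4 more liver-only regions lay 14206 to 25681 bp after the first start. The widest of the 4, at 28597251 to 28599152, scored at the 88.3 and 58.7 percentiles, and 2 others lay at 28595951 to 28596652 and at 28601601 to 28602852. All 6 liver-only regions thus lay at or downstream of the Gfi1b start. The 3 yolk-sac-only regions lay upstream of it, with midpoints at -8194 to -34369 bp, at the 16.6 to 48.2 percentiles. No yolk sac library had a peak in the gene body.

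Zfpm1, the longest of the 8 genes, lies on chromosome 8 from 122282141 to 122337251 on the plus strand. Its first start had a peak in all 4 libraries, 2802 and 2652 bp wide in liver and 3502 and 3102 bp in yolk sac. Zfpm1 was the one gene of the 5 with shared promoters whose summed promoter width was greater in both yolk sac libraries. The gene body held 10 and 11 liver peaks against 6 and 6 from yolk sac. Inside it 6 regions were seen in both liver libraries alone, and 3 in both yolk sac libraries alone. The liver-only ones were low in the lists, at or below the 36.7 percentile in each library. The yolk-sac-only region at 122335851 to 122336852, with its midpoint in a coding exon near the 3′ end, was at the 94.1 and 89.1 percentiles. Zfpm1 therefore had initiation regions inside the gene that belonged to either tissue, and the promoter to both.

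Lmo2 lies on chromosome 2 from 103957986 to 103981878 on the plus strand and has distal and proximal start groups 11542 bp apart. At the distal start both liver libraries had a peak, 6202 and 5702 bp wide, at the 99.97 and 99.93 percentiles of their lists in width. Neither yolk sac library had one there. At the proximal starts, from 11542 bp downstream, the main peak was 3902 and 3252 bp wide in liver and 3052 and 1802 bp in yolk sac. Its scores were at the 98.0 and 89.6 percentiles in liver and the 72.0 and 78.0 percentiles in yolk sac. The gene-level call in all 4 libraries thus came from the proximal starts, and the distal start was liver-only. In yolk sac, single peaks at 103965251 to 103965952 (replicate 1) and at 103966801 to 103967252 (replicate 2) lay between the 2 promoters and did not coincide. Upstream, a region at 103944651 to 103945452 was yolk-sac-only, at the 43.7 and 56.0 percentiles, and one at 103955451 to 103955852 liver-only, at the 14.0 and 22.8 percentiles.

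Ldb1 lies on chromosome 19 from 46031570 to 46045214 on the minus strand. Of the 8 regions within 50 kb of it, 6 were called in all 4 libraries and none was liver-only or yolk-sac-only. Its first start had peaks in all 4 libraries, 1602 and 1552 bp wide in liver and 2852 and 2552 bp in yolk sac, shared with the divergent gene Pprc1. The internal peak was 3752 and 3602 bp in liver and 2502 and 1602 bp in yolk sac. The 2 promoters therefore differed in opposite directions, the first wider in yolk sac and the internal one wider in liver. The liver peaks at the internal promoter ended 8363 bp after the first start and the yolk sac peaks at 7113 and 6463 bp. The difference holds the RefSeq start at 46037070 with its pair of GATA matches in the sequence printed above.

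The share of each gene body covered by peaks was higher in both liver libraries than in both yolk sac libraries at 8 of the 8 genes. This pattern held for 18.1% of the 15384 protein-coding genes with a peak in the body, and the reverse for 48.9%. At Nfe2 peaks covered 69.1% and 67.7% of the body in liver and 12.8% and 8.88% in yolk sac. At Tal1 the values were 44.6% and 41.6% against 17.2% and 16.5%, and at Lmo2 35.9% and 32.1% against 15.7% and 9.86%. These 3 genes, all with promoter peaks in yolk sac, had no overlap between the tissues. At Klf1 peaks covered 64.7% and 60.2% in liver against 32.8% and 35.7% in yolk sac. At Gata1 the liver values were 27.7% and 25.3% and at Gfi1b 25.8% and 27.0%, with 0% in both yolk sac libraries.

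The log2 ratio of liver to yolk sac coverage was smallest, at 0.51, at the cofactor genes Zfpm1, with 15.2% and 15.8% against 11.0% and 10.5%, and Ldb1, with 32.4% and 35.3% against 27.3% and 19.9%. For each of the 8 genes the exact permutation p was 0.333, and 0.498 after Benjamini-Hochberg adjustment over all genes. After each list was cut to its 24333 peaks of highest score, the number in the shortest list, the count was again 8 genes. That cut took peaks mostly from the yolk sac lists, so it could hardly lower the count. In the upper 50% of each list by score the count was 5. The share of all protein-coding genes with this pattern was not counted under either cut.

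**Figure D2:**
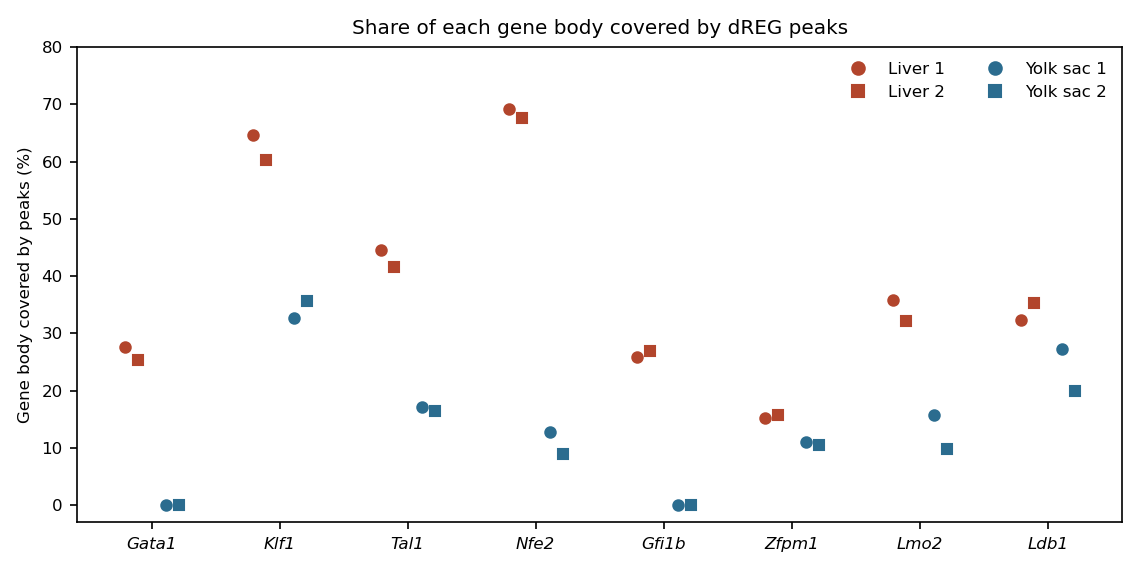
Share of each gene body covered by peaks, in percent, for the 4 libraries (liver red, yolk sac blue, circles for replicate 1 and squares for replicate 2). At each of the 8 genes both liver points lie above both yolk sac points, from 69.1% against 12.8% at Nfe2 to 15.2% against 11.0% at Zfpm1.

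The summed width of the promoter peaks could be compared at the 5 genes called in all 4 libraries. It was 7204 and 7106 bp in liver against 2154 and 1754 bp in yolk sac at Nfe2. At Lmo2 it was 10104 and 8954 bp against 3052 and 1802 bp, and at Tal1 5402 and 4952 bp against 1952 and 2104 bp. These 3 of 5 genes had wider promoter peaks in both liver libraries, against 20.1% of the 11805 genes called in all 4 libraries. Zfpm1, with 2802 and 3054 bp against 3502 and 3102 bp, was wider in both yolk sac libraries, as were 38.1% of those genes. The Ldb1 values, 5354 and 5154 bp in liver and 5354 and 4154 bp in yolk sac, overlapped. The median log2 ratio of liver to yolk sac width was 1.35 over the 5 genes and -0.08 over the 11805. Each non-overlapping gene had an exact permutation p of 0.333 (0.573 adjusted over the 11805).

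Within 50 kb of the bodies of the 8 genes together, the liver lists held 65 and 66 peaks and the yolk sac lists 50 and 53, or 65.5 ± 0.707 against 51.5 ± 2.12 (SD, n = 2). The liver total was 1.27 times the yolk sac total, whereas the same count over all protein-coding genes gave 0.638 times. Both liver libraries had more peaks than both yolk sac libraries at 4 of the 8 genes, against 6.51% of 18226 genes, and the reverse held for none of the 8, against 56.7%. The 4 were Zfpm1 with 15 and 15 against 9 and 9 peaks, Gfi1b with 8 and 8 against 5 and 5, Klf1 with 9 and 8 against 6 and 6, and Gata1 with 5 and 6 against 3 and 4. The exact permutation p was 0.333 at each of them (0.528 adjusted over 18226 genes). At Tal1 (8 and 7 against 6 and 8), Nfe2 (9 and 9 against 10 and 9), Lmo2 (4 and 6 against 4 and 5) and Ldb1 (7 and 7 against 7 and 7) the libraries of the tissues overlapped.

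Inside the gene bodies liver totalled 24.5 ± 2.12 peaks against 15 ± 1.41 for yolk sac (SD, n = 2), and the ratio was 1.63, against 0.588 over all protein-coding genes. Gata1, Nfe2, Gfi1b and Zfpm1 had more body peaks in both liver libraries, 4 of 8 genes against 7.92% of 14386, and none had more in both yolk sac libraries, against 32.6%. The exact permutation p was 0.333 at each of the 4 (0.824 adjusted over the 14386). On a log2 scale the ratio of totals was 0.71 in bodies and 0.35 within 50 kb, against -0.77 and -0.65 over all protein-coding genes. With flanks of 25 kb and 100 kb in place of 50 kb it was 0.52 and 0.0893, against -0.64 and -0.67. With the higher-scoring 50% of each list the ratios in bodies and within 50 kb fell to 0.00. Over all protein-coding genes they were -0.70 and -0.68. The difference within 50 kb then turned to more yolk sac peaks at Gata1, Klf1 and Zfpm1. With lists of equal length the ratios in bodies and within 50 kb were 1.44 and 0.93, against 0.13 and 0.18.

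**Figure D3:**
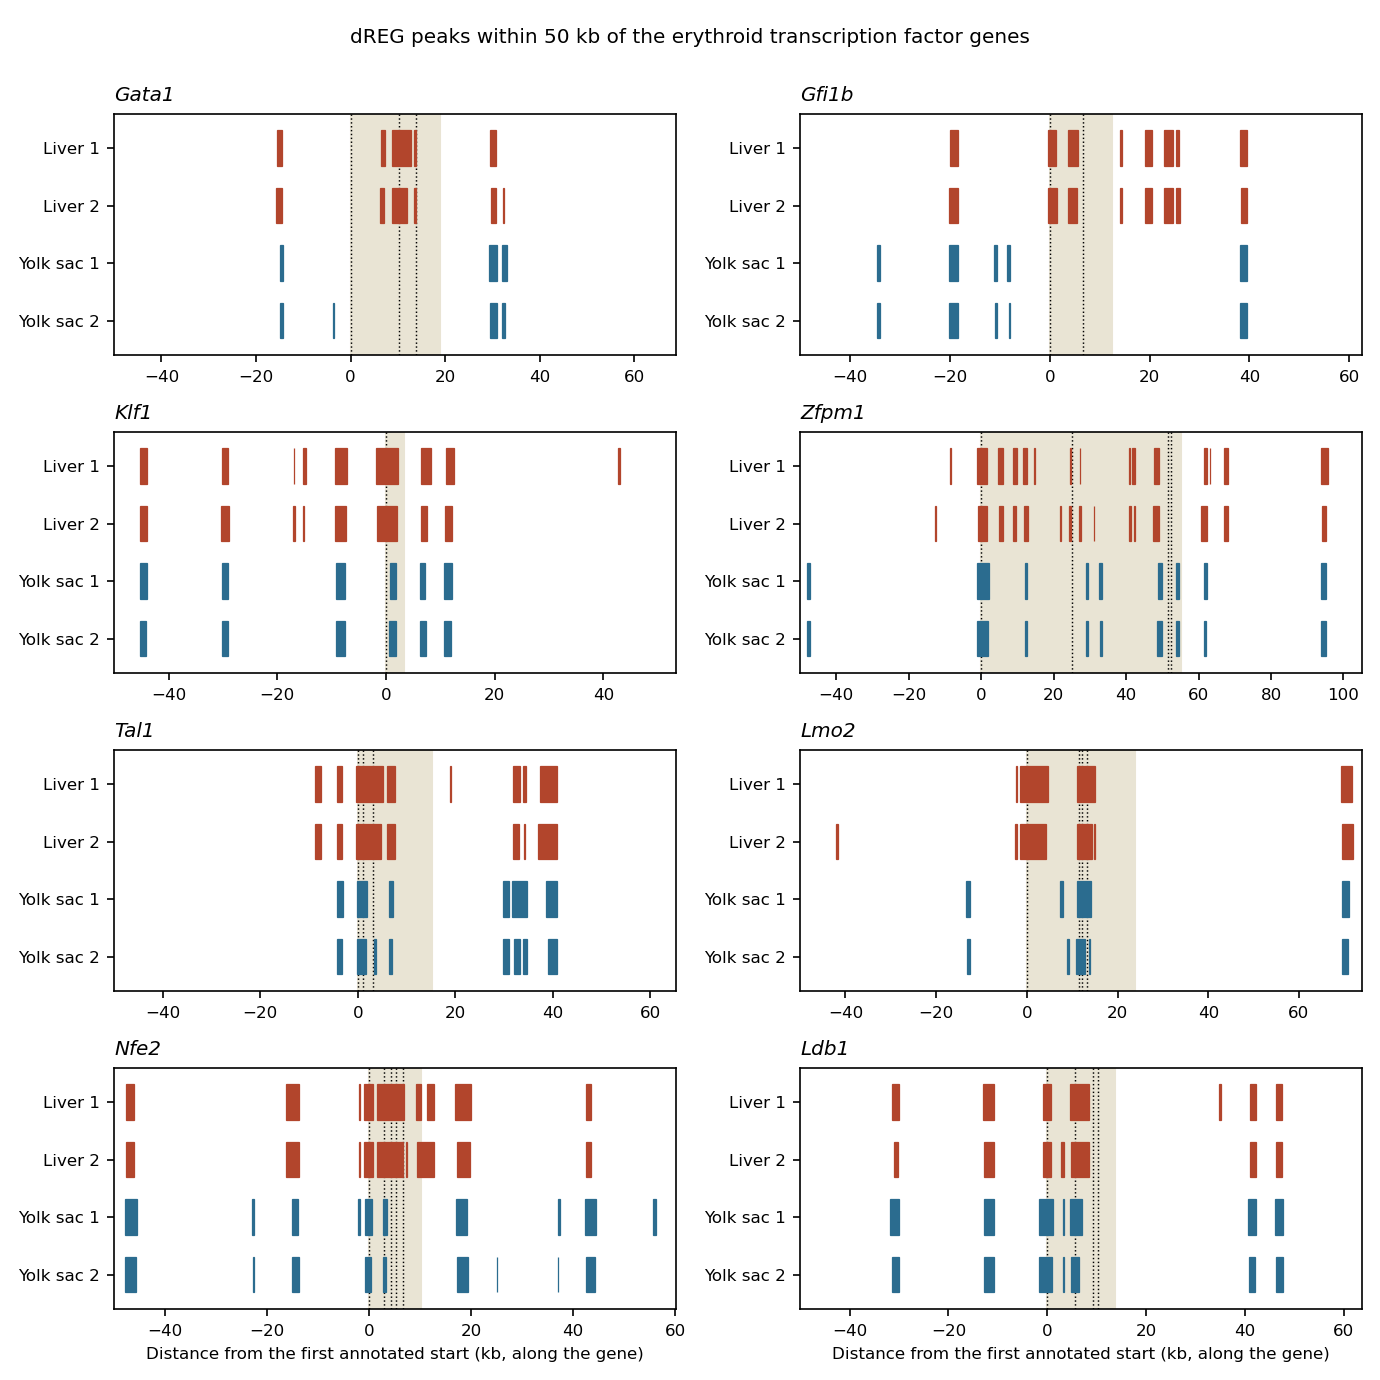
Peaks within 50 kb of each gene body, with distance from the first annotated start in kb along the gene on the horizontal axis and 1 row per library (liver red, yolk sac blue; shading and dotted lines as in the map of gene bodies). Liver-only peaks line up downstream of the Gfi1b body and inside Zfpm1, and the peaks flanking Ldb1 are found in all 4 libraries with 1 exception in liver replicate 1.

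Merging the peaks of the 4 lists that overlapped by at least 1 bp gave 86 regions within 50 kb of the 8 genes. Of these, 22 were liver-only (25.6%, against 6.62% of the 61095 regions of the series) and 11 were yolk-sac-only (12.8% against 33.0%). A further 34 were called in all 4 libraries (39.5% against 25.7%). Away from start sites, liver-only regions again outnumbered yolk-sac-only ones. Among the 52 regions away from any annotated start, 16 were liver-only (30.8%, against 8.01% of 42751 such regions) and 11 yolk-sac-only (21.2% against 40.3%). Of the 20 regions at promoters of neighbouring genes, 18 were called in all 4 libraries. All 4 libraries called 15689 of the 61095 regions of the series, and 3814 of these were among the 42751 regions away from start sites. The others of the 15689 lay at start sites.

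The liver-only regions were spread unevenly over the 8 genes. Zfpm1 had 7 of its 22 regions liver-only, Gfi1b 6 of 11, Gata1 3 of 7, Klf1 2 of 9, Lmo2 2 of 8, Tal1 1 of 8, Nfe2 1 of 13 and Ldb1 0 of 8. The 2 at Klf1, at 84884851 to 84885152 and at 84886651 to 84887302, were weak, at or below the 16.4 percentile. Of the liver-only regions away from a start site, the one upstream of Tal1 had the highest lower percentile, at 96.2 and 64.0. The liver-only region at 122349251 to 122350302, downstream of Zfpm1, was at the 53.7 and 72.6 percentiles. The number of yolk-sac-only regions was 2 with lists of equal length and 23 with a flank of 100 kb, and in the upper 50% of each list by score there were 6 liver-only regions and 4 yolk-sac-only ones.

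**Figure D4:**
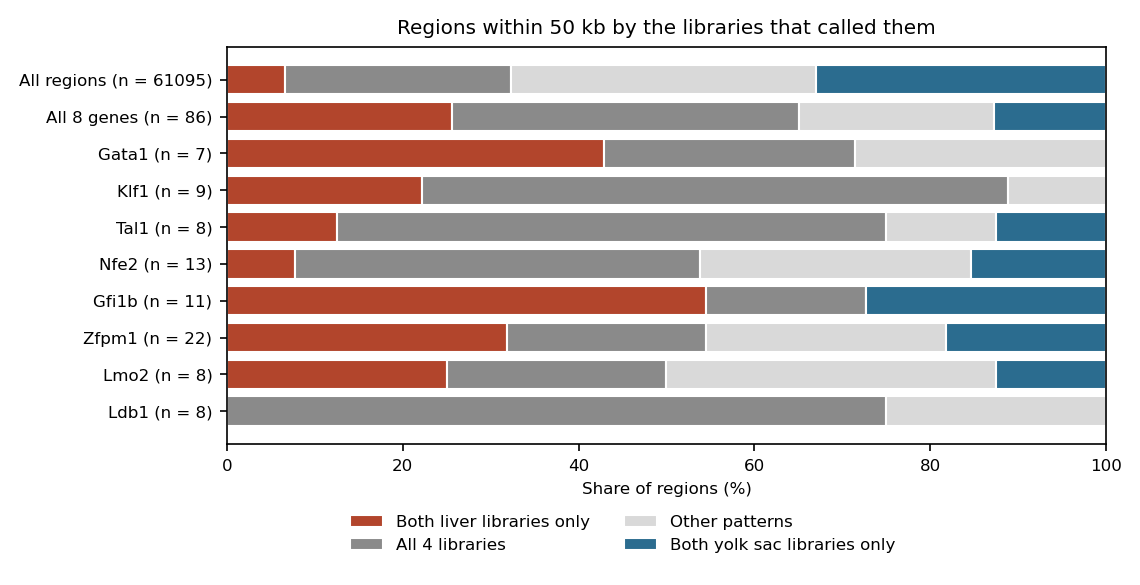
Share of regions, in percent, by the libraries that called them, for all 61095 regions, for the 86 regions within 50 kb of the 8 genes and for each gene (n is the number of regions). The liver-only share is 6.62% over all regions and 25.6% around the 8 genes, and ranges from 0% at Ldb1 to 54.5% at Gfi1b.

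The other genes of erythroid regulation were examined as lists. Of 22 partner genes, factors that bind with, beside or against the 8, promoter peaks were found at 20 and 22 in the liver libraries and at 21 and 22 in the yolk sac libraries. None was liver-only and none yolk-sac-only, against 1.01% and 5.25% of all protein-coding genes. All 4 libraries called 53.8% of protein-coding genes and 19 of the 22 partner genes. Their median log2 ratio of promoter width was -0.01, and that of the 11805 genes called in all 4 libraries was -0.08. Of the 19, 8 were wider in both liver libraries, against 20.1% of the 11805. In both yolk sac libraries 5 were wider, against 38.1%. The target genes, genes of red-cell formation bound or driven by the 8, differed from the partners in their promoter calls. Of 21 found in the annotation, the liver libraries called 20 and 20 and those of yolk sac 8 and 8. The liver-only targets were 12 of the 21, against 1.01% of all protein-coding genes, and none was yolk-sac-only, against 5.25%. Among the 12 were Alas2 of heme synthesis and the membrane and cytoskeleton genes Slc4a1, Epb42, Ermap and Rhag. The globin genes Hbb-bt, Hbb-bs and Hba-a1 were liver-only too, as were Trim10, Hemgn and Tspo2. The alpha-globin genes Hba-a1 and Hba-a2 are almost the same in sequence, so their calls are uncertain, as are those of the beta-globin pair. Hba-a2 was called in no library, but was liver-only with a window of 1000 bp. With a window of 250 bp Hba-a1 had no call in any library.

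All 4 libraries called 53.8% of protein-coding genes and 8 of the 21 targets. These 8 targets included Epor, Tmod1, Ank1, Bpgm, Bcl2l1, E2f2 and Fech. Their promoter peaks were wider in both liver libraries at 7 of the 8, against 20.1% of the 11805 genes called in all 4 libraries. They were wider in both yolk sac libraries at 1, against 38.1%. The median log2 ratio was 1.15. These lists were chosen with earlier results of the same data known, and the targets are no independent support for a direction at the 8 genes.

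Markers of other cell types were counted in the same way, since the 8 genes are active in more than red cells and a tissue holds many cell types. Of 7 megakaryocyte markers, the liver libraries called 4 and 3, and those of yolk sac 2 and 2. Vwf was among the 2 liver-only ones, but not with a window of 1000 bp. Pf4 leaned the other way, with peaks of 1852 and 1652 bp in yolk sac and 352 bp in liver replicate 1 alone. Itga2b was called in all 4, at the 70.3 and 79.4 percentiles in liver and the 98.5 and 97.2 percentiles in yolk sac. These percentiles belong to lists of different length and were not compared between the tissues. Gp9, Gp1bb and Gp6 were called in no library. Of 5 mast cell markers (Cpa3, Mcpt4, Tpsb2, Ms4a2 and Fcer1a), none had a promoter peak in any library. Of 7 macrophage and myeloid markers, 4 and 3 were called in liver and 5 and 4 in yolk sac. Adgre1 was yolk-sac-only, and Elane was called in no library. Of 7 endothelial markers, 5 and 6 were called in liver and 7 and 7 in yolk sac, with Emcn yolk-sac-only.

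Markers of the main cell types of each tissue were counted too. These lists were chosen with earlier results of the data known, so they are no independent check of the tissue labels. Of 7 yolk sac endoderm markers, 7 and 7 were called in yolk sac and 5 and 3 in liver, and the genes Amn and Cubn had calls in yolk sac alone. Of 7 mesenchymal markers, 7 and 7 were called in yolk sac and 4 and 6 in liver, with Hand1 yolk-sac-only. Hepatocyte markers, most of which yolk sac endoderm also expresses, were called at 5 and 5 of 7 in each tissue, with Cps1 liver-only, Fgb yolk-sac-only and Serpina1a in no library. Over all 7 marker lists, liver alone called 3 genes and yolk sac alone 6. Among all protein-coding genes such calls made up 1.01% and 5.25%. With lists of equal length the marker genes numbered 7 and 4, and the shares over all protein-coding genes were not counted. The part of these cell types in the results at the 8 genes was not tested.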

How the data were processed

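The series holds 4 PRO-seq libraries, 2 of liver and 2 of yolk sac, each with 1 deposited dREG peak list. The score in these lists is the authors' deposited value, without a unit and not scaled between libraries; its minimum was 0.80 in each list. Bowtie2, bedtools and the mm10 build are named in the submitters' processing notes, without versions. The dREG version and the filters are not given in the sources used here. Lists were made per library.

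Positions were matched to GENCODE M21 (GRCm38), and are given 1-based. At the deposited positions 33.5% to 55.8% of peaks overlapped a window of 500 bp around a start, and 11.2% to 14.6% after a shift of 5000 bp. A peak was counted in a body or within 50 kb by its midpoint, and promoter peaks reach within 500 bp of any of the gene's starts. Regions are the union of overlapping peaks. Each gene was tested by an exact permutation test (two-sided, 6 ways to assign the libraries), with Benjamini-Hochberg adjustment over all genes. A log2 ratio of peak counts of a single gene has a pseudocount of 0.5, as has that of body coverage. Python 3.11.15, numpy 2.4.6 and pandas 2.3.3 were used, and the calls were tested on simulated lists.

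The genes and lists were chosen with earlier results of these data known. The 8 genes are all named, as are list genes called in 1 tissue only or in no library, and regions by their pattern; a few genes the rule names are not reported here. The share of gene bodies covered was added after the data were seen. Of 22 target genes, Ahsp was not matched by symbol. Alternatives were other windows, flanks, overlaps and start sites, score filters, each library left out, and the replicate number as a block.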

Additional observations from a re-analysis of the deposited data

How the results depend on the processing

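Of 15 results over the gene sets, compared under 14 alternatives (134 values), 113 values stayed within the replicate spread or, for counts, within 1.5 times. The number of liver-only genes among the 8 was 2 or 3 throughout. The gene-level difference of 3 promoter calls was 2 with a window of 1000 bp and 2 in the higher-scoring 50% of each list, where Gata1 lost its call. In that 50%, the log2 ratios of peaks in bodies and within 50 kb were 0.00 and 0.00, there were 6 liver-only regions and 4 yolk-sac-only ones, partner genes called in 1 tissue only 1 (liver) and 2 (yolk sac), marker genes 1 and 14, and genes with more of the body covered in liver 5. With lists of equal length, the ratios were 1.44 and 0.93, yolk-sac-only regions 2, liver-only partner genes 2 and marker genes 7 (liver) and 4 (yolk sac), so that the balance of marker genes, 3 and 6 with the full lists, turned. The share of all protein-coding genes called in 1 tissue only was not counted under these cuts. The log2 ratio of peaks within 50 kb was 0.52 with a flank of 25 kb and 0.0893 with 100 kb. Over all protein-coding genes it was -0.64 and -0.67. With 100 kb, yolk-sac-only regions numbered 23. Leaving out each library in turn gave 0 to 1 liver-only and 0 to 2 yolk-sac-only partner genes; the first needed yolk sac replicate 2 and the second liver replicate 2 to be left out.

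For single genes, the difference in peaks within 50 kb (liver minus yolk sac) changed sign in 8 of 80 values. In the higher-scoring 50% it was -0.5 at Gata1, -0.5 at Klf1 and -2 at Zfpm1. At Nfe2 it was 3.5 with lists of equal length and 1 with a flank of 25 kb, and at Gfi1b -1.5 with a flank of 100 kb. It was -0.5 at Lmo2 without liver replicate 2 and -0.5 at Tal1 without yolk sac replicate 1. The cause was not tested. Taking the replicate number as a block gave the same difference of 3 promoter calls and a median log2 ratio of promoter width of 1.35. It changed no other call. Same-numbered libraries did not deviate together (correlation -0.01 over 18226 genes), so the numbers were not treated as pairs. Depth is unknown, so an absent peak does not show absent transcription.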

Other observations

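For 7 of the 8 genes, the protein-coding gene most like it in the within-list percentiles of its best promoter peak (0 where there was none) was taken from the other 21950, by the largest of the 4 absolute differences. The nearest gene to Klf1 was Alas2, the erythroid enzyme that starts heme synthesis, with a largest difference of 0.40 percentile points and with no promoter peak in yolk sac either. The nearest to Gfi1b was Rhd, a red-cell membrane protein of the Rh family, with a difference of 2.55. For the genes called in all 4 libraries the nearest were Tor1a for Tal1 (2.70), Dnajc7 for Zfpm1 (2.64), Arhgap18 for Lmo2 (2.08) and Mars for Ldb1 (4.37), and for Nfe2 a pair of genes tied at 2.35, of which Dnajc17 was taken. Over 4 libraries many genes lie close together by this measure, and it says nothing of shared control.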
